A study of Mus musculus with 12 samples.

Results

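The 9 genes described here encode receptors and ligands of the vascular endothelial growth factor (VEGF) and angiopoietin systems. They were chosen by symbol, as Kdr, Flt1, Flt4, Nrp1, Nrp2, Tek, Tie1, Vegfa and Figf (the older symbol of Vegfd), and 9 of 9 were among the 10655 genes of the deposited table. The RNA came from mouse aortic endothelial cells and was sequenced by SMART-seq, a protocol that copies whole transcripts from small amounts of RNA, in 12 libraries of 4 groups with 3 libraries each. A library's name joins 2 diets, taken here as the mother's followed by the offspring's because the series text writes its groups in that order. The groups are WD_WD (WD offspring of WD mothers), CD_WD (WD offspring of CD mothers), WD_CD (CD offspring of WD mothers) and CD_CD (CD offspring of CD mothers). WD offspring had received WD again for 4 weeks. The abbreviations CD and WD are kept as labelled, and neither genotype nor sex, age, batch or a sort is named in the sources, so preparation and diet of the offspring cannot be told apart. Whether replicates were separate animals is not stated either, and each p-value below therefore measures the spread among these libraries, part of which may be technical.

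VEGF ligands bind receptor tyrosine kinases on endothelial cells and drive their growth, migration and permeability. Neuropilins act as co-receptors that hold some of these ligands and also bind semaphorins. Angiopoietins act through the kinase Tek (TIE2), with Tie1 as its partner, and signalling by Tek keeps the resting endothelium of vessels such as the aorta stable.

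For the receptors and ligands whose RefSeq promoter window lies outside the annotated gene, or nearly so, the 250 bases before the transcription start are shown here, because Flt1 and Tek are among the receptors described below as lower on WD, while Kdr did not pass the test and Vegfa is the ligand of Kdr and Flt1. The windows are from RefSeq on GRCm38.p6 and run 5' to 3' on the strand of the gene. Capitals mark the ETS core GGAA or its complement TTCC, the letters that ETS factors, a family active in endothelial cells, read. Kdr lies at chr5:75978456-75978705 on the minus strand (3 of its bases fall inside the GENCODE gene), Flt1 at chr5:147726012-147726261 on the minus strand, Tek at chr4:94739039-94739288 on the plus strand and Vegfa at chr17:46032378-46032627 on the minus strand.
Kdr: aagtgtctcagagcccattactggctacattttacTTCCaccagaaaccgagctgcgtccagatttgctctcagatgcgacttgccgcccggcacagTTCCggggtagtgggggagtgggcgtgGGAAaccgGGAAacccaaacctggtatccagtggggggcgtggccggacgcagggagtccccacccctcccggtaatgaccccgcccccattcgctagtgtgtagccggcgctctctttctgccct
Flt1: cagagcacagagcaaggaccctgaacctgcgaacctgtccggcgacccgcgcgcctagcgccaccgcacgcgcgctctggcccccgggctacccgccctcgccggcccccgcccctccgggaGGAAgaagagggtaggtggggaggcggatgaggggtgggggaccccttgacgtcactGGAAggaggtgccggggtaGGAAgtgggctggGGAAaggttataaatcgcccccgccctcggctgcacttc
Tek: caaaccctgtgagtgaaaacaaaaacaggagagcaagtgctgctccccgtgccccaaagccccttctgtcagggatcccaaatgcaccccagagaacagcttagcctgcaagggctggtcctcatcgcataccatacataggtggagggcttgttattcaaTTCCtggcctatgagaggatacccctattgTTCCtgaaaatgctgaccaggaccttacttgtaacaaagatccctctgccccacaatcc
Vegfa: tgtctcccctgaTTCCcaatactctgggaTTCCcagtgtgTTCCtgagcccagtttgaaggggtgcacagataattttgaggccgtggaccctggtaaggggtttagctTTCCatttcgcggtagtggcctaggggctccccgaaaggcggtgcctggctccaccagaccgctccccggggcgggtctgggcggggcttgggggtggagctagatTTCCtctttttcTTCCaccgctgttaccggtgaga
The ETS core was in the windows of 9 of 9 members, with 4 copies each in Kdr, Flt1 and Nrp1, 2 each in Flt4 and Tek, 1 in Nrp2, 7 in Tie1, 6 in Vegfa and 3 in Figf. It is also in 93.4% of the 32851 RefSeq promoter windows of the same length, with a median of 3 copies. GATA (complement TATC) was found in 4 members, Kdr, Tek, Vegfa and Figf, and in 53.6% of all windows. The GC box GGGCGG (complement CCGCCC) was in 6 members, Kdr, Flt1, Flt4, Nrp1, Nrp2 and Vegfa, and in 32.7% of all windows. Neither the hypoxia response core ACGTG (complement CACGT) nor the forkhead core TAAACA (complement TGTTTA) occurred in these 250 bases of any member, against 16.6% and 12% of all windows. Both strands were searched for each motif, no motif contains another, though neighbouring matches can share letters, and a match describes letters only.

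The libraries held 4074413 to 19670570 reads in the table. In WD offspring 1 read was worth 0.861 to 3.96 normalised counts, against 0.347 to 0.669 in CD offspring, so low levels are coarser on WD. Depth alone does not set this, since CD_WD replicate 3 had 18013966 reads. Normalised counts summed to 15031921 to 28557831 per library in WD offspring, against 6824095 to 7164565 in CD offspring. The summed levels below are therefore parts of unequal totals. All levels below are deposited normalised counts, in which reads had been divided by a size factor per library. The endothelial label was checked on 30 pan-endothelial genes (such as Pecam1, Cdh5 and Vwf), all 30 of which were measured. Their summed level lay between 22427 and 39570 in WD_WD, 12608 and 72168 in CD_WD, 92206 and 123194 in WD_CD, and 116894 and 145208 in CD_CD. Robo4 was at 0 in WD_WD replicate 2, and the other endothelial genes had reads in every library. The 23 measured macrophage and monocyte genes (of 24 listed) summed to 857199 to 1559258 in WD_WD, 108551 to 836617 in CD_WD, 13833 to 155183 in WD_CD and 26605 to 45948 in CD_CD, and none was at 0. Of the 9 MHC class II genes, 6 rose with WD mothers and 8 with CD mothers in the comparison of offspring's diets below, and of the 16 measured smooth muscle genes (of 17), 4 and 12 fell. Over all genes, 14.2% and 9.46% were called higher there, and 10.2% and 5.55% lower. The MHC class II genes summed to 361934 to 919470 in WD_WD, 659826 to 3738763 in CD_WD, 10309 to 83588 in WD_CD and 14053 to 28237 in CD_CD, and the smooth muscle genes to 9972 to 25014 in WD_WD, 1468 to 13526 in CD_WD, 13769 to 62510 in WD_CD and 51764 to 90238 in CD_CD. Their part in the results below was not tested. CD_WD replicate 1 differed most from the other libraries of its group and had the lowest endothelial mean of all libraries (6.47 on the log2 scale) and the highest lymphocyte mean (13.04). In bulk RNA, fewer cells of a type and less RNA per cell cannot be told apart.

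In GENCODE vM21 on GRCm38 the receptor genes are Kdr (chr5:75932827-75978458) and Flt1 (chr5:147561604-147726011), both on the minus strand, Flt4 (chr11:49609263-49652739, plus), Nrp1 (chr8:128358604-128503363, plus), Nrp2 (chr1:62703285-62818695, plus), Tek (chr4:94739289-94874976, plus) and Tie1 (chr4:118471191-118490061, minus). The ligand genes are Vegfa (chr17:46016993-46032369, minus) and Figf (chrX:164373378-164402650, plus). Levels can be compared between genes only per length, here as normalised counts per kb of exon. In offspring on CD the angiopoietin receptors stood highest. Tie1 averaged 667 ± 165 and Tek 640 ± 203 per kb in WD_CD (SD, n = 3), and Tie1 averaged 732 ± 217 and Tek 690 ± 99.2 per kb in CD_CD; in neither group did the pair differ by more than their spread. Nrp1 followed at 356 ± 61.2 per kb in WD_CD and 345 ± 98 per kb in CD_CD, beyond the spread from its neighbours on both sides. The other members lay between 13.1 ± 9.76 (Nrp2) and 71.1 ± 51.6 per kb (Vegfa) in WD_CD and between 25.8 ± 8.46 (Nrp2) and 92.3 ± 35.9 per kb (Kdr) in CD_CD, each within the spread of the next. In offspring on WD, Tek and Tie1 did not stand beyond the spread of the members next to them. In WD_WD, Vegfa (101 ± 18.4 per kb), Tek (98.3 ± 13.1), Tie1 (88.1 ± 48.8) and Nrp1 (83 ± 6.81) did not differ beyond their spread, and Kdr came next at 18.7 ± 14.5 per kb. In CD_WD, Tie1 (160 ± 136 per kb) and Tek (124 ± 111) led with a wide spread, and Flt4 was lowest at 3.86 ± 3.5 per kb; no neighbours in that order differed beyond their spread.

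**Figure D1:**
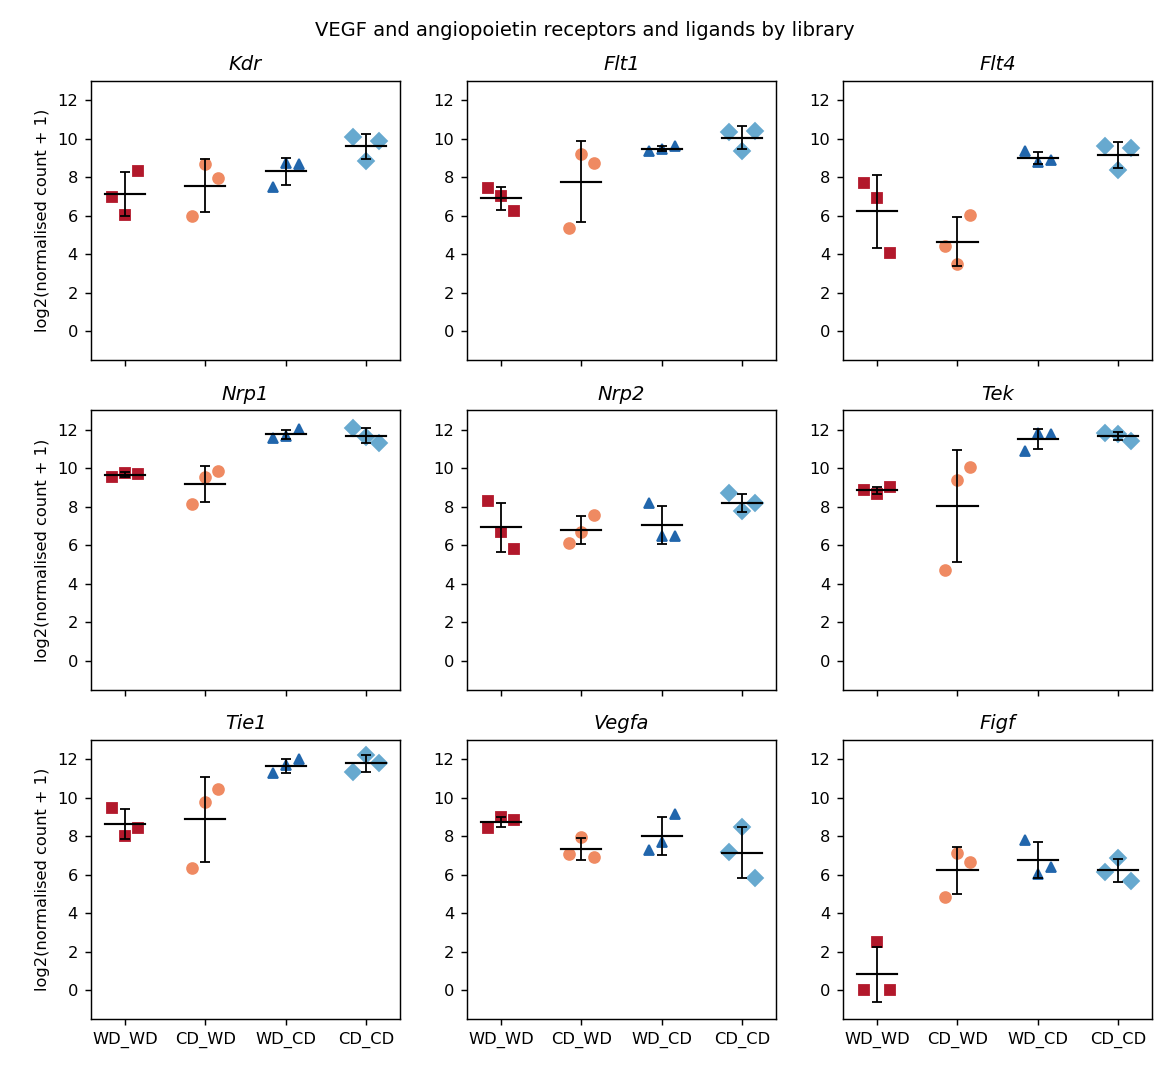
Level of each of the 9 genes in every library, as log2(normalised count + 1) on the y axis, by group on the x axis; points are libraries, and lines and bars are the mean and SD of 3. For Flt1, Flt4, Nrp1, Tek and Tie1, the libraries on WD lie below those on CD within each mothers' diet. Figf is at or near 0 only in WD_WD. Of all genes, 19.4% were lower on WD without overlap with WD mothers and 21.6% with CD mothers. The share that did so with both was not counted.

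The offspring's diet was compared within each mothers' diet. With WD mothers, 5 of the 9 members fell in WD_WD relative to WD_CD (Flt1, Flt4, Nrp1, Tie1 and Figf) and 0 rose, by limma with a Benjamini-Hochberg adjusted p under 0.05 over all genes. This test called 24.4% of all genes in either direction, 10.2% as lower and 14.2% as higher. With CD mothers, 4 of the 9 fell in CD_WD relative to CD_CD (Flt4, Nrp1, Tek and Tie1) and 0 rose, where 15.0% of all genes were called, 5.55% as lower and 9.46% as higher. On recovered reads edgeR called 5 members with WD mothers and 2 with CD mothers (19.8% and 13.6% of all genes), and DESeq2 called 6 and 4 (29.0% and 22.3%). The median log2 difference of the members was -2.59 with WD mothers and -2.28 with CD mothers, beside 0.01 and -0.02 over all genes. Scaling to the library total in place of the deposited size factors moved the median of all genes to -1.36 and -1.45. The share of calls that were higher became 9.34% and 6.66%, against 58.2% and 63%. Relative to the median of all genes, Nrp1 then had -2.12 and -2.49 and Tie1 -3.05 and -2.89. Such scaling shifts all genes of a library alike. These relative differences therefore cannot change, apart from the pseudocount, and are no separate check of the members. Libraries did not overlap and were lower on WD for 6 members with WD mothers (19.4% of all genes did this) and for 7 members with CD mothers (21.6% of all genes). Fold changes are on the log2(value + 1) scale, which understates the change of low genes.

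Among the VEGF receptors, Flt4 (VEGFR3), the receptor of VEGF-C and VEGF-D that lymphatic and some blood vessels carry, had 205, 120 and 15.8 normalised counts in WD_WD, against 657, 438 and 481 in WD_CD. It had 20.3, 10.5 and 64.6 in CD_WD, against 775, 336 and 744 in CD_CD. In both comparisons the libraries on WD were below those on CD without overlap (19.4% and 21.6% of all genes did this). Flt4 fell by 2.79 ± 0.88 (log2, SE) with WD mothers (limma adjusted p = 0.0368) and fell by 4.52 ± 0.88, or 23-fold, with CD mothers (limma adjusted p = 0.00565). With WD mothers the call was lost under edgeR (adjusted p = 0.0542) and without any 1 of WD_CD replicates 1 to 3, WD_WD replicates 2 and 3 and CD_CD replicates 1 and 3; it was -1.71 without WD_WD replicate 3, whose 15.8 normalised counts were 4 reads (adjusted p = 0.111). With CD mothers it held in every setting tried on these levels, at adjusted p of 2.61e-06 to 0.0329. Relative to other endothelial genes, as described below, it did not pass. The 5 measured lymphatic endothelial genes (of 8 listed) summed to 1459 to 2975 in WD_WD, 1812 to 2109 in CD_WD, 4543 to 8044 in WD_CD and 3788 to 11178 in CD_CD, none at 0; their part in the result was not tested.

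Flt1 (VEGFR1), which binds VEGF-A tightly and can act as a decoy for it, had 172, 129 and 75.2 normalised counts in WD_WD, against 661, 706 and 794 in WD_CD. The groups did not overlap, and Flt1 fell by 2.59 ± 0.79 (log2, SE; limma adjusted p = 0.0321). This call was lost without a mean-variance trend (adjusted p = 0.052) and without any 1 of WD_CD replicates 1 to 3 or WD_WD replicates 2 and 3, with adjusted p up to 0.0966. With CD mothers it had 40.6, 601 and 421 in CD_WD, against 1325, 662 and 1367 in CD_CD. The groups again did not overlap, but the difference of -2.28 ± 0.79 did not pass (limma adjusted p = 0.0711), and it was -1.08 without CD_WD replicate 1. It passed without CD_WD replicate 2 (-3.01, adjusted p = 0.0305), without CD_WD replicate 3 (-2.75, 0.0477) and scaled to the library total (-3.71, 0.0105).

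Kdr (VEGFR2), the kinase through which VEGF-A chiefly signals, had 126, 65.2 and 317 normalised counts in WD_WD, against 179, 428 and 418 in WD_CD. The highest WD_WD library overlapped the lowest WD_CD library, and the difference of -1.20 ± 0.73 (log2, SE) did not pass (limma adjusted p = 0.244). In CD_WD it had 63.4, 406 and 250, against 1086, 468 and 948 in CD_CD. These groups did not overlap, and the difference of -2.07 ± 0.73 (log2, SE) did not pass either (limma adjusted p = 0.0773). It was -1.29 without CD_WD replicate 1, and passed without CD_WD replicate 2 (-2.62, adjusted p = 0.0483) and scaled to the library total (-3.50, 0.0102). The log2 ratio of Flt1 to Kdr within a library averaged -0.21 ± 1.62 in WD_WD and 0.23 ± 0.75 in CD_WD, against 1.17 ± 0.62 in WD_CD and 0.44 ± 0.13 in CD_CD (SD, n = 3). The difference between the offspring diets, -0.80, did not pass an exact two-sided permutation test within mothers' diets (p = 0.215, 0.43 adjusted over the 2 ratios tested; the smallest p possible is 0.005).

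Of the neuropilins, Nrp1 fell in both comparisons and Nrp2 passed in neither. Nrp1, the co-receptor of VEGF-A and of class 3 semaphorins in blood vessels, had 742, 875 and 820 normalised counts in WD_WD, against 3027, 3270 and 4163 in WD_CD. With CD mothers it had 279, 755 and 937 in CD_WD, against 4420, 3181 and 2532 in CD_CD. Within each mothers' diet the libraries on WD were below those on CD without overlap (19.4% and 21.6% of all genes did this). Nrp1 fell by 2.09 ± 0.41 (log2, SE), or 4.26-fold, with WD mothers (limma adjusted p = 0.0042) and fell by 2.50 ± 0.41, or 5.64-fold, with CD mothers (limma adjusted p = 0.00262). Both calls held in every setting tried on these levels, with adjusted p up to 0.0204 with WD mothers and up to 0.0292 with CD mothers. Relative to other endothelial genes, as described below, neither passed.

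Nrp2, the co-receptor known mostly from veins and lymphatic vessels, had 316, 100 and 55.4 normalised counts in WD_WD, against 289, 87.7 and 89.6 in WD_CD, which overlapped throughout. In CD_WD it had 68.5, 100 and 189, against 412, 214 and 291 in CD_CD, with no overlap. Neither difference passed (-0.12 ± 0.72 with WD mothers, limma adjusted p = 0.918; -1.43 ± 0.72 with CD mothers, limma adjusted p = 0.206). The 95% interval of the first ran from -1.69 to 1.44, and its sign turned under DESeq2 (0.02).

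Tek, the angiopoietin receptor, had 460, 403 and 527 normalised counts in WD_WD, against 1916, 3675 and 3457 in WD_CD. The groups did not overlap, but its difference of -2.65 ± 0.99 (log2, SE) did not pass in the fit over all 12 libraries, which share 1 estimate of the spread (limma adjusted p = 0.0678). It passed when only the compared groups entered the fit (adjusted p = 0.000534), under edgeR (0.0328), under DESeq2 (0.00347) and without CD_WD replicate 1 (4.51e-05). In CD_WD it had 25.4, 661 and 1061, against 3595, 3436 and 2718 in CD_CD, with no overlap, and the first of these was 10 reads. Tek fell by 3.61 ± 0.99 with CD mothers (limma adjusted p = 0.0282), and fell by 1.94 on the log2 scale without CD_WD replicate 1 (adjusted p = 0.00239). With CD mothers the call was lost under edgeR (adjusted p = 0.0592), without a trend (0.057), with only the compared groups (0.0946) and without any 1 CD_CD replicate (0.0596 to 0.0932).

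Tie1, the orphan partner of Tek, had 706, 256 and 337 normalised counts in WD_WD, against 2467, 3280 and 4094 in WD_CD. It had 81.1, 870 and 1412 in CD_WD, against 2590, 4712 and 3491 in CD_CD. No library on WD reached a library on CD within either mothers' diet (19.4% and 21.6% of all genes were lower on WD in this way). Tie1 fell by 3.03 ± 0.81 (log2, SE), or 8.14-fold, with WD mothers (limma adjusted p = 0.0185) and fell by 2.91 ± 0.81, or 7.5-fold, with CD mothers (limma adjusted p = 0.0302). With WD mothers it was lost without any 1 of WD_CD replicates 2 and 3 or WD_WD replicates 2 and 3 (0.0529 to 0.0655). With CD mothers it was lost under edgeR (adjusted p = 0.0651), without a trend (0.06), with only the compared groups (0.0891) and without any 1 CD_CD replicate (0.071 to 0.108), and the fall was -1.65 without CD_WD replicate 1 (adjusted p = 0.0233). The log2 ratio of Tek to Tie1 averaged 0.23 ± 0.73 in WD_WD and -0.82 ± 0.71 in CD_WD, against -0.15 ± 0.28 in WD_CD and -0.11 ± 0.51 in CD_CD (SD, n = 3). The difference between the offspring diets, -0.16, did not pass the exact two-sided permutation test (p = 0.71, also 0.71 adjusted), and its sign turned without CD_WD replicate 1 (0.04) or WD_WD replicate 1 (0.05).

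Of the ligands, Figf fell with WD mothers and Vegfa passed in neither comparison. Vegfa, the main growth factor of blood vessels and a product of many cell types, had 347, 502 and 447 normalised counts in WD_WD, against 151, 205 and 558 in WD_CD. It had 134, 249 and 118 in CD_WD, against 141, 348 and 56 in CD_CD. Both pairs of groups overlapped, and neither difference passed (0.72 ± 0.67 with WD mothers, limma adjusted p = 0.447; 0.17 ± 0.67 with CD mothers, limma adjusted p = 0.902). Scaled to the library total the values were -0.66 and -1.26, which is 0.70 and 0.19 relative to the median of all genes under that scaling. The sign with CD mothers turned under edgeR (-0.22) and DESeq2 (-0.12).

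Figf, which encodes VEGF-D, a ligand of Flt4 in the mouse, was nearly absent from WD_WD. It had 0, 4.55 and 0 normalised counts there, which were 3 reads in all, against 222, 64.2 and 84.3 in WD_CD, which were 810 reads. In CD_WD it had 27.9, 138 and 101, against 68, 116 and 49.5 in CD_CD, and those groups overlapped. Figf fell with WD mothers (limma log2 difference -5.92 ± 1.07 SE, adjusted p = 0.00255), and the call held in every setting tried on these levels, with adjusted p up to 0.0388. Relative to endothelial genes, as described below, it did not pass (limma adjusted p = 0.0524). The size rests on few reads and on the pseudocount: it was -3.63 with a pseudocount of 8. As a ratio of read rates, WD_WD had 0.0181 of the level in WD_CD, with a 95% counting interval of 0.00373 to 0.0531 that covers counting error only and treats PCR copies as independent molecules. With CD mothers the log2 difference was 0.00 ± 1.07 (limma adjusted p = 1); scaled to the library total it was -1.41, or 0.04 relative to the median of all genes. The 14 measured fibroblast genes (of 15) had a median log2 difference of -1.72 with WD mothers and -0.19 with CD mothers; they summed to 19617 to 55224 in WD_WD, 28692 to 183235 in CD_WD, 54423 to 133867 in WD_CD and 55441 to 103973 in CD_CD, none was at 0, and 4 fell with WD mothers and 1 with CD mothers. Over all genes, 10.2% fell with WD mothers and 5.55% with CD mothers, so the count of fibroblast genes with CD mothers is near the background. The part of the fibroblast genes in the result for Figf was not tested.

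**Figure D2:**
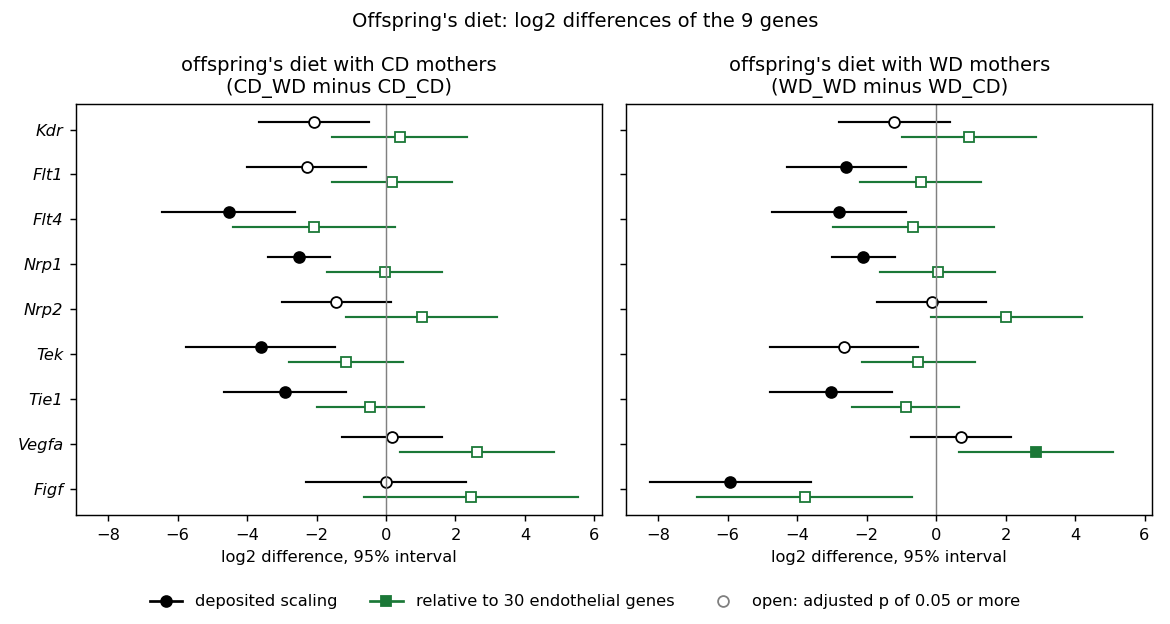
Log2 difference of each gene by offspring's diet (x axis, with 95% interval), with WD minus CD offspring of CD mothers on the left and of WD mothers on the right. Black points use the deposited scaling and green squares are relative to 30 endothelial genes; filled symbols pass the adjusted p of 0.05, which the squares do for Vegfa with WD mothers alone.

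The receptors were then set against other endothelial genes, by centring each library on the average log2 level of the 30 pan-endothelial genes, which include no member. Before centring, these 30 genes were below 0 in 30 of 30 cases with WD mothers (median log2 difference -2.19, 12 fell) and in 30 of 30 with CD mothers (median -2.69, 9 fell). Over all genes, 10.2% and 5.55% were called lower before centring. On this relative scale none of the 7 receptors and co-receptors passed, with relative log2 differences of 0.05 ± 0.80 (SE) for Nrp1, -0.44 ± 0.84 for Flt1, -0.65 ± 1.13 for Flt4, -0.51 ± 0.79 for Tek, -0.88 ± 0.75 for Tie1, 0.94 ± 0.94 for Kdr and 2.02 ± 1.05 for Nrp2 with WD mothers. With CD mothers they were -0.04 ± 0.80 for Nrp1, 0.18 ± 0.84 for Flt1, -2.07 ± 1.13 for Flt4, -1.15 ± 0.79 for Tek, -0.45 ± 0.75 for Tie1, 0.39 ± 0.94 for Kdr and 1.03 ± 1.05 for Nrp2. The 95% intervals still allow differences of some size, such as -4.40 to 0.26 for Flt4 with CD mothers and -1.69 to 1.62 for Nrp1. Tie1 lay -0.09 ± 0.13 from their mean in WD_WD and 0.13 ± 0.21 in CD_WD, against 0.80 ± 0.29 in WD_CD and 0.58 ± 0.41 in CD_CD (log2, SD, n = 3).

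Vegfa was higher on this scale, with 2.87 ± 1.08 (log2, SE; limma adjusted p = 0.0419) with WD mothers and 2.63 ± 1.08 with CD mothers (limma adjusted p = 0.0547). This is near the background: the median over all genes was 2.15 with WD mothers and 2.44 with CD mothers, and 34.3% and 38.9% of all genes were called, 34.0% and 38.8% as higher. Figf had -3.78 ± 1.50 with WD mothers (limma adjusted p = 0.0524) and 2.46 ± 1.50 with CD mothers (limma adjusted p = 0.175). With WD mothers the count of members called, 1, was 0 without any 1 of WD_CD replicates 1 to 3, CD_CD replicates 1 and 2 or WD_WD replicate 3, and 4 without CD_WD replicate 1. With CD mothers it was 0, and 1 without CD_WD replicate 1 or 3. Whether the share of endothelial cells or the levels within them differed was not tested.

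**Figure D3:**
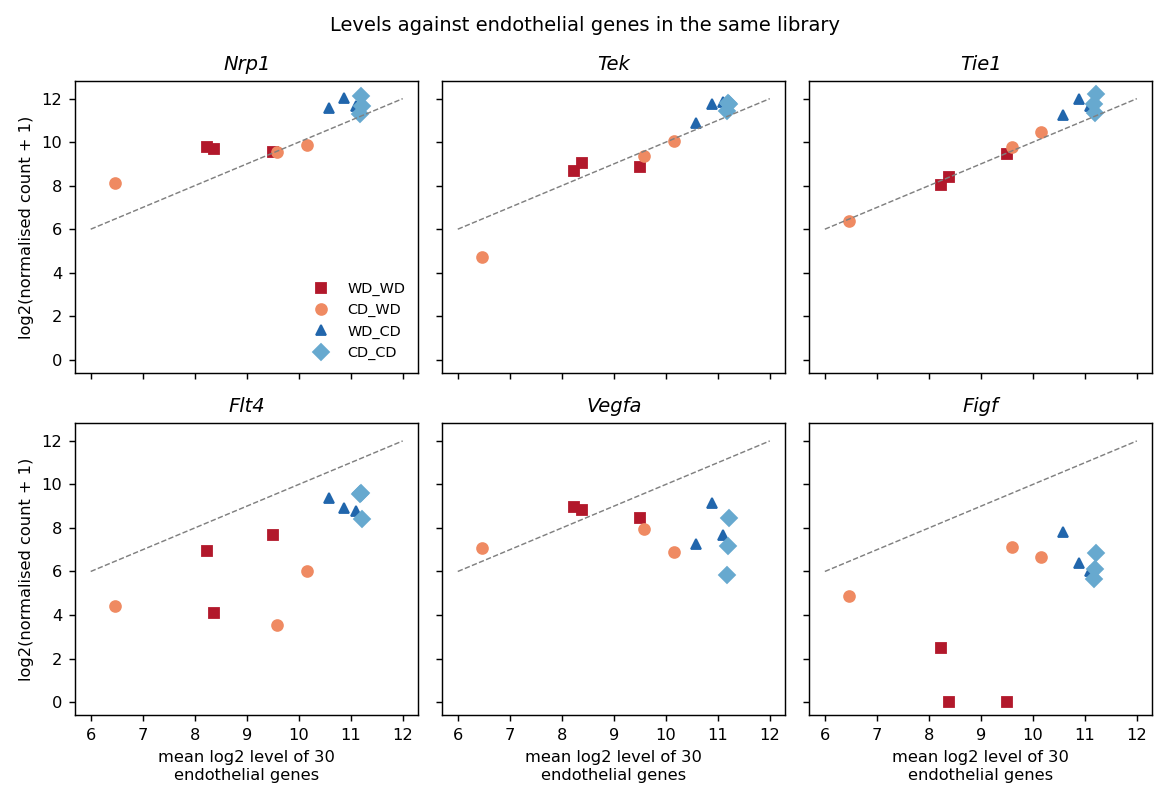
Level of 6 of the genes in each library (y axis, log2(normalised count + 1)) against the mean log2 level of 30 endothelial genes in that library (x axis); symbols are the 4 groups and the dashed line marks equal values. Tie1 lies near the line in WD offspring and above it in CD offspring, by 0.80 on average in WD_CD and 0.58 in CD_CD. Vegfa does not follow the line, and Figf drops to 0 in 2 WD_WD libraries.

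By mother's diet no member passed. In WD offspring (WD_WD relative to CD_WD) 0 of 9 members passed and in CD offspring (WD_CD relative to CD_CD) 0 of 9 did, where limma called 0.00% of all genes in each; at an unadjusted p under 0.05 it had 628 and 276 genes. edgeR also called 0 and 0 genes, and DESeq2 14 (0.131%) and 9 (0.0845%), with 1 and 0 members among them. The members' median log2 difference was 0.15 in WD offspring and -0.15 in CD offspring, beside -0.03 and -0.05 over all genes.

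In WD offspring 1 member had an unadjusted p under 0.05. Figf had 0, 4.55 and 0 normalised counts in WD_WD, against 27.9, 138 and 101 in CD_WD, with no overlap (4.16% of all genes were lower without overlap). Its log2 difference of -5.39 ± 1.07 (SE) did not pass limma (adjusted p = 0.506) and passed DESeq2 (adjusted p = 0.0222). The authors' deposited table gives Figf a log2 fold change of -5.44 with an adjusted p of 0.0107 for this comparison, in which 36 genes had an adjusted p under 0.05. As a ratio of read rates WD_WD had 0.0242 of the level in CD_WD, with a 95% counting interval of 0.00494 to 0.0717.

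Vegfa had 347, 502 and 447 normalised counts in WD_WD, against 134, 249 and 118 in CD_WD. It was higher in each WD_WD library than in any of CD_WD (5.86% of all genes were), but the difference of 1.43 ± 0.67 (log2, SE) did not pass (limma adjusted p = 0.836). Vegfa has, in the authors' deposited table, a log2 fold change of 1.37 and an adjusted p of 0.494. Flt4 had 205, 120 and 15.8 in WD_WD, against 20.3, 10.5 and 64.6 in CD_WD, which overlapped (1.57 ± 0.88, limma adjusted p = 0.863). The other 6 members had log2 differences between -0.87 (Flt1) and 0.80 (Tek), and the sign of Tek turned without CD_WD replicate 1 (-0.86) and under edgeR (-0.39) and DESeq2 (-0.33).

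In CD offspring, Kdr alone had libraries that did not overlap, with 179, 428 and 418 normalised counts in WD_CD, against 1086, 468 and 948 in CD_CD (4.87% of all genes were lower without overlap). Its difference of -1.30 ± 0.73 (log2, SE) did not pass (limma adjusted p = 1), and the authors' deposited table gives -1.29 with an adjusted p of 1. The other members ranged from -1.16 (Nrp2) to 0.88 (Vegfa). Nrp1 (0.07 ± 0.41), Tek (-0.15 ± 0.99), Tie1 (-0.12 ± 0.81) and Flt4 (-0.16 ± 0.88) had small differences whose sign turned without 1 library, with 95% intervals as wide as -2.30 to 1.99 for Tek.

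The interaction asks whether the mother's diet acted differently in WD than in CD offspring. Of the members 0 passed, and of all genes 0.00% (342 genes at an unadjusted p under 0.05; 0 by edgeR and 10, or 0.0939%, by DESeq2). Figf had the largest value among the members, -5.92 ± 1.51 (log2, SE), which did not pass limma (adjusted p = 0.997) and passed DESeq2 (adjusted p = 0.045). The other members lay between -0.31 (Flt1) and 1.73 (Flt4).

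**Figure D4:**
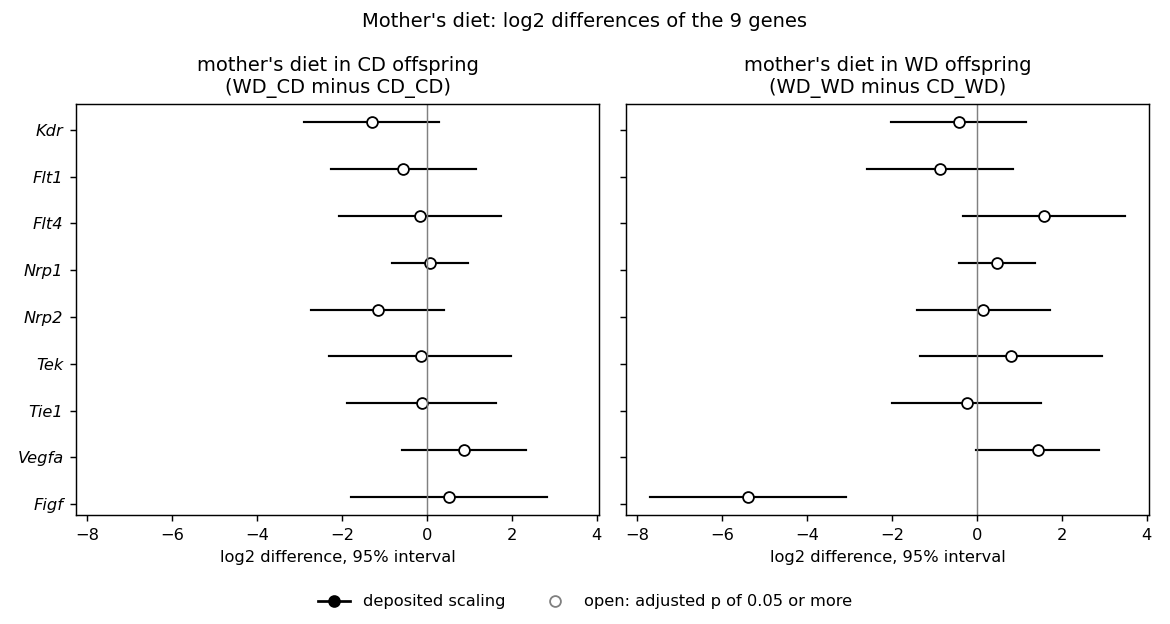
Log2 difference of each gene by mother's diet (x axis, with 95% interval), WD minus CD mothers, in each offspring diet. All symbols are open because no member passed the adjusted p of 0.05, and Figf in WD offspring lies farthest from 0.

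Genes that work with these receptors were counted from lists of the pathway. Of the other ligands, 4 of 7 were measured (Vegfb, Vegfc, Pgf and Angpt2). With WD mothers 1 fell, Pgf (placental growth factor, a ligand of Flt1), which is named after its values were seen: it averaged 52.2 ± 90.5 normalised counts in WD_WD, against 169 ± 29.4 in WD_CD, and the libraries overlapped (limma adjusted p = 0.0466). The share of all genes called lower in that comparison was 10.2%. Angpt2, the angiopoietin that endothelial cells store, averaged 135 ± 60.1 in WD_WD, against 335 ± 174 in WD_CD, and 106 ± 71.1 in CD_WD, against 306 ± 107 in CD_CD (SD, n = 3). Vegfc, the other ligand of Flt4, averaged 68.1 ± 57.9 in WD_WD, against 191 ± 110 in WD_CD, and 65.6 ± 54.3 in CD_WD, against 276 ± 84.8 in CD_CD. Neither of these passed in either comparison (limma adjusted p of 0.218 and 0.114 for Angpt2, and of 0.287 and 0.0949 for Vegfc).

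Of the semaphorins and plexins, which bind or signal with neuropilins, 11 of 17 were measured and 4 fell with WD mothers and 4 with CD mothers, with 0 rises. The shares over all genes were 14.2% higher and 10.2% lower with WD mothers, and 9.46% higher and 5.55% lower with CD mothers. The median log2 difference of the list was -1.58 with WD mothers and -2.78 with CD mothers. Relative to endothelial genes, as described above, this median was 0.56 and -0.33. Sema3f, a ligand of Nrp2, averaged 84.7 ± 58.4 normalised counts in WD_WD, against 1116 ± 291 in WD_CD (limma adjusted p = 0.0138), and 177 ± 169 in CD_WD, against 1164 ± 236 in CD_CD (0.0236). Plxna2, a plexin, averaged 63.8 ± 47.6 in WD_WD, against 923 ± 359 in WD_CD (0.0234), and Sema3b 18 ± 15.9 in WD_WD, against 337 ± 173 in WD_CD (0.0165). With CD mothers Plxnd1, the endothelial plexin, averaged 81.4 ± 68.5 in CD_WD, against 437 ± 113 in CD_CD (0.0257), and Sema6d 45.7 ± 35.4 in CD_WD, against 244 ± 57.8 in CD_CD (0.0258). Of these calls, that of Sema3f with WD mothers held in every setting tried without centring on endothelial genes. Each of the others was lost without at least 1 library, with adjusted p up to 0.101. Without CD_WD replicate 1 the log2 difference with CD mothers was -2.22 in place of -3.71 for Sema3f and -1.94 in place of -2.95 for Plxnd1. Relative to endothelial genes none of the named calls passed. With WD mothers Sema3f had -1.73, Sema3b -2.23 and Plxna2 -1.91 (limma adjusted p = 0.113, 0.127 and 0.145). With CD mothers Sema3f had -1.25, Plxnd1 -0.50 and Sema6d -0.33 (limma adjusted p = 0.223, 0.652 and 0.79). On the deposited scaling Plxna2 also fell with CD mothers, to 88.3 ± 77 in CD_WD, against 770 ± 227 in CD_CD (limma adjusted p = 0.0265). Other settings are not given for that call.

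Among the regulators of receptor activity and uptake, 18 of 19 were measured. With WD mothers 2 rose and 7 fell, and with CD mothers 2 rose and 6 fell (median log2 difference -0.34 and -0.68). The shares over all genes were 14.2% higher and 10.2% lower with WD mothers, and 9.46% higher and 5.55% lower with CD mothers. Only the falls of the list were well above these. Ptprb (VE-PTP), the phosphatase that holds Tek and Kdr in check, averaged 440 ± 178 normalised counts in WD_WD, against 11123 ± 3120 in WD_CD, and 749 ± 618 in CD_WD, against 11241 ± 784 in CD_CD (SD, n = 3). It fell by 4.69 ± 0.75 (log2, SE; limma adjusted p = 0.00148) with WD mothers and fell by 4.60 ± 0.75 (0.00241) with CD mothers. Relative to the 30 endothelial genes it still fell by 2.54 (limma adjusted p = 0.0116) and fell by 2.14 (0.0262), where 0.272% and 0.0751% of all genes were called lower. Ptprj, another receptor phosphatase, averaged 217 ± 91.7 in WD_WD, against 1287 ± 318 in WD_CD (limma adjusted p = 0.00126). Adam10, a protease that sheds membrane proteins, fell by 2.10 (0.002) with WD mothers and fell by 2.01 (0.00383) with CD mothers on the log2 scale. Ptpn6 (SHP-1), a phosphatase of blood cells, rose in CD_WD to 4424 ± 4390, against 260 ± 133 in CD_CD (log2 difference 3.77, limma adjusted p = 0.00449). These calls held in every setting tried without centring on endothelial genes, although scaling to the library total moved those of Ptprj (-4.00), Adam10 (-3.48 and -3.46) and Ptpn6 (2.33). Relative to the 30 endothelial genes Ptprj had -0.48 with WD mothers, and Adam10 0.05 with WD and 0.44 with CD mothers. None of these passed (limma adjusted p = 0.68, 0.97 and 0.674). Ptpn6 still rose by 6.23 with CD mothers (limma adjusted p = 0.000894), where 38.8% of all genes were called higher. On the deposited scaling Ptprj also fell with CD mothers (log2 difference -1.96, limma adjusted p = 0.00735). Ptpn6 also rose there with WD mothers (log2 difference 2.79, limma adjusted p = 0.0136). Other settings are not given for these 2 calls.

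Of 38 measured signalling genes downstream of the receptors (of 40), 4 rose and 7 fell with WD mothers, and 3 rose and 2 fell with CD mothers (median log2 difference -0.47 and -0.30). Of all genes 14.2% rose and 10.2% fell with WD mothers and 9.46% rose and 5.55% fell with CD mothers, and only the share of the list that fell with WD mothers was above these. Those that rose include adaptors that blood cells also use. Dok2 averaged 1091 ± 516 normalised counts in WD_WD, against 193 ± 129 in WD_CD, and 909 ± 342 in CD_WD, against 176 ± 39.6 in CD_CD (limma adjusted p = 0.00536 and 0.015). Grb2 averaged 2405 ± 677 in WD_WD, against 516 ± 310 in WD_CD, and 2613 ± 1740 in CD_WD, against 437 ± 53.5 in CD_CD (limma adjusted p = 0.00557 and 0.00724). These 4 calls were lost when values were scaled to the library total (log2 differences of 0.86 to 1.25), and that of Dok2 with CD mothers also without CD_CD replicate 2. Ptk2 (focal adhesion kinase) fell in CD_WD to 159 ± 83.9, against 684 ± 151 in CD_CD (0.0285), a call lost without CD_WD replicate 1 (0.0819) or any 1 CD_CD replicate. It also fell with WD mothers, to 142 ± 95 in WD_WD, against 672 ± 46 in WD_CD (limma adjusted p = 0.0118). The 23 measured macrophage and monocyte genes rose in 13 cases and fell in 0 with WD mothers, and rose in 8 and fell in 0 with CD mothers; their part in these rises was not tested.

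Of 18 measured genes known to be induced by VEGF or to mark tip cells (of 22), 6 rose and 1 fell with WD mothers, and 4 rose and 2 fell with CD mothers (median log2 difference 0.98 and 0.45). Those that moved did not share 1 direction. Over all genes, 14.2% rose and 10.2% fell with WD mothers, and 9.46% rose and 5.55% fell with CD mothers. The share of the list that rose was above these in both comparisons. The share that fell was below that of all genes with WD mothers and above it with CD mothers. Cxcr4, a chemokine receptor of tip cells and of many blood cells, averaged 560 ± 160 normalised counts in WD_WD, against 28.4 ± 13.8 in WD_CD, and 327 ± 177 in CD_WD, against 13.3 ± 14.5 in CD_CD (limma adjusted p = 0.0031 and 0.00268). Plaur, the urokinase receptor, averaged 7271 ± 4520 in WD_WD, against 974 ± 94.3 in WD_CD, and 6502 ± 1320 in CD_WD, against 764 ± 274 in CD_CD (limma adjusted p = 0.00126 and 0.00127). Pdgfb, the factor by which endothelial cells recruit pericytes, fell in CD_WD to 51.7 ± 33.1, against 331 ± 115 in CD_CD (limma adjusted p = 0.00771). Adamts1, a matrix protease, fell in WD_WD to 106 ± 75.4, against 1350 ± 639 in WD_CD (limma adjusted p = 0.0104). These calls held in every setting tried without centring on endothelial genes. Scaling to the library total moved Plaur to 1.34 and 1.69 and Pdgfb to -4.19. Relative to endothelial genes Pdgfb had -0.31 with CD mothers and Adamts1 -1.60 with WD mothers. Neither passed (limma adjusted p = 0.791 and 0.123). Cxcr4 and Plaur still rose on this scale, by 6.49 and 4.87 with WD mothers (limma adjusted p = 0.00143 and 0.000846). With CD mothers they rose by 7.32 and 5.59 (limma adjusted p = 0.000777 and 0.000394). Of all genes, 34.0% and 38.8% were called higher there. Blood cell genes were higher in the same libraries: the 6 measured neutrophil genes (of 8) summed to 15993 to 181210 in WD_WD, 26750 to 195889 in CD_WD, 173 to 1487 in WD_CD and 441 to 752 in CD_CD, with 4 rises with WD mothers and 3 with CD mothers. The 12 measured lymphocyte genes (of 15) summed to 9247 to 35287 in WD_WD, 7688 to 409033 in CD_WD, 1594 to 4785 in WD_CD and 299 to 5431 in CD_CD, with 4 and 7 rises. Csf3r and Clec4d (neutrophil) and Cd79b (lymphocyte) were each at 0 in 1 CD_CD library, and Cd7 (lymphocyte) in 1 WD_CD library. Their part in the rises of Cxcr4 and Plaur was not tested. On the deposited scaling Adamts1 also fell with CD mothers, to 297 ± 285 in CD_WD, against 1529 ± 91.6 in CD_CD (limma adjusted p = 0.0294). Other settings are not given for that call.

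Of the 10 measured genes of the hypoxia control of VEGF (of 11), 0 rose and 1 fell with WD mothers, and 1 rose and 1 fell with CD mothers (median log2 difference 0.07 and 0.08). None of these shares was well above that of all genes with WD mothers (14.2% rose, 10.2% fell) or, for the rise, with CD mothers (9.46%; 5.55% fell). Epas1 (HIF-2 alpha), an oxygen-sensing factor abundant in endothelium, averaged 591 ± 234 normalised counts in WD_WD, against 6210 ± 1500 in WD_CD, and 508 ± 373 in CD_WD, against 5925 ± 742 in CD_CD. It fell by 3.46 ± 0.68 (log2, SE; limma adjusted p = 0.0041) and fell by 4.08 ± 0.68 (0.00269), in every setting tried. Relative to endothelial genes its differences of -1.32 and -1.62 did not pass (limma adjusted p = 0.165 and 0.0825). Zfp36l1, an RNA-binding protein that shortens the life of Vegfa mRNA, rose with CD mothers (log2 difference 3.40 ± 1.07, limma adjusted p = 0.0489), a call that held in 9 of 22 other settings, and the difference was 1.63 without CD_WD replicate 1.

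**Figure D5:**
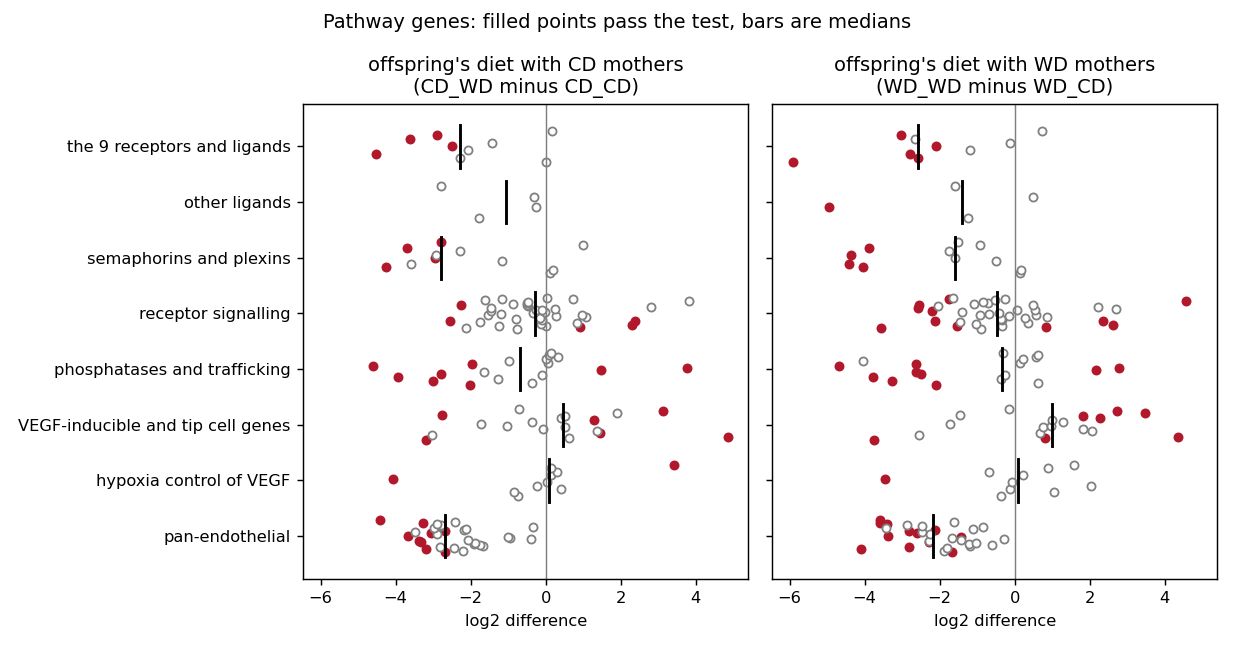
Log2 difference by offspring's diet (x axis) of each measured gene in 8 lists (rows), with CD mothers on the left and WD mothers on the right. Filled points pass the adjusted p of 0.05 and bars are list medians; the pan-endothelial genes all lie below 0, and so do most of the 9 receptors and ligands.

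For each member, the genes of the table with the most similar pattern over the 12 libraries were found by the mean absolute difference of log2 levels after each gene was centred on its own mean, among 10242 genes with a plain symbol. Tek was nearest to Cav1, the coat protein of caveolae (mean difference 0.23), and Rhoj (0.24), a small GTPase of endothelium. Tie1 was nearest to Nos3, endothelial nitric oxide synthase (0.27), and Clec14a (0.29), both of which are in the pan-endothelial list. Nrp1 was nearest to Ctnnb1, beta-catenin (0.14), and Itgb1, an integrin (0.20), and Flt4 to Erg (0.70), an ETS factor, and Sorbs2 (0.70). Flt1 was nearest to Nr1d1 (0.31) and Lims2 (0.33), Kdr to Tacc2 (0.34) and Grrp1 (0.37), and Nrp2 to Slc25a24 (0.40) and Prcp (0.42). Vegfa was nearest to Serf1 (0.44) and Tmem38b (0.48), and Figf to Nts (0.80) and Spats2l (0.85). Among the members themselves Tek and Tie1 were nearest to each other, at 0.46. Among all genes compared, Tie1 ranked only 51 in nearness to Tek, and Tek 93 in nearness to Tie1. All these values rest on the same 12 libraries and are given as a description.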

How the data were processed

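The deposited values are reads per gene divided by a size factor per library (signal, called normalised counts here), made by the authors; the tools named per the submitters' processing notes are HISAT2 2.2.1, featureCounts 2.0.1, DESeq2, Trim Galore 0.6.10, FastQC 0.12.1 and SAMtools 1.13, with the build GRCm38 (mm10). The sources used here do not give the counting annotation or strand setting. Log2 fold changes and p-values come with the authors' deposited table, for WD_CD over CD_CD and WD_WD over CD_WD.

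Since the values are not counts, the test was limma 3.58.1 (R 4.3.3) with a mean-variance trend on log2(value + 1), over all 12 libraries with 4 group means, 8 residual degrees of freedom and Benjamini-Hochberg adjustment over 10655 genes. No gene was filtered out; the lowest gene mean was 15.8. Whole reads were recovered for 100% of the 127860 values (within 0.01 reads), giving 4074413 to 19670570 reads per library. On these reads edgeR 4.0.16 (quasi-likelihood test) called 2115 genes by offspring's diet with WD mothers and 1452 with CD mothers, and DESeq2 1.42.0 called 3090 and 2376. Counting intervals cover counting error only. A second fit centred each library on the mean log2 level of 30 endothelial genes. Alternatives were other pseudocounts, a filter on low values, scaling to the library total, no trend, the compared groups alone, a replicate block and leaving out each library; leaving out CD_WD 1 and WD_CD 3 together was chosen after the data were seen. The scripts were tested on simulated data.

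The members and lists were chosen with earlier results of these data known. Beside the 9 members, up to 3 genes of each pathway list were named per comparison of offspring's diet, those with the smallest p among genes that passed with no overlap of libraries, and the 2 with the smallest p where none did; for each member the 2 genes most like it were named. A result that this rule also picks is not reported here. A contrast of offspring's diet and one of mother's diet share libraries; the comparisons with WD and with CD mothers do not, but all are fitted with 1 estimate of the spread. Gene lengths are exon unions of GENCODE vM21 on GRCm38, and promoter sequences are from RefSeq on GRCm38.p6. Plots were drawn with matplotlib 3.10.9 in Python 3.11.15.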

Additional observations from a re-analysis of the deposited data

How the results depend on the processing

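Of the calls by offspring's diet, Nrp1 in both comparisons, Flt4 with CD mothers and Figf with WD mothers kept direction and call. This held under every alternative run without centring on endothelial genes. In the fit relative to endothelial genes none of these passed. Nrp1 had 0.05 with WD mothers and -0.04 with CD mothers, Flt4 -2.07 and Figf -3.78 (limma adjusted p = 0.962, 0.967, 0.133 and 0.0524). With scaling to the library total, 4711 genes were called with WD mothers and 4367 with CD mothers, against 2604 and 1599, and 7 members with CD mothers, against 4. The 4 members called with CD mothers were 2 under edgeR, 2 without a trend and 2 with only the groups compared. Relative to endothelial genes, 1 member was called with CD mothers at a pseudocount of 8 and 1 at a mean of at least 100, against 0; with WD mothers 2 were called at a pseudocount of 0.5 and 0 with the replicate block, against 1. By mother's diet, DESeq2 called 14 genes in WD offspring, 1 of them a member, and 9 in CD offspring, no trend gave 3 in CD offspring and the block 1 in WD offspring, against 0 throughout; for the interaction DESeq2 called 10 genes, 1 of them a member. Signs that turned were those of Figf with CD mothers (-0.00 at a pseudocount of 0.5, -1.41 scaled to the library total), Vegfa with CD mothers (-1.26 scaled to the total, -0.22 under edgeR, -0.12 under DESeq2) and with WD mothers (-0.66 scaled to the total), Nrp2 with WD mothers (0.02 under DESeq2), Nrp1 by mother's diet in CD offspring (-0.06) and WD offspring (-0.05) and Nrp2 in WD offspring (-0.19), each without CD_WD 1 and WD_CD 3 together, and Tek by mother's diet in WD offspring (-0.39 under edgeR, -0.33 under DESeq2, -0.86 without CD_WD 1 and WD_CD 3 together) and for the interaction (-0.29 under edgeR, -0.23 under DESeq2, -0.58 without both). Scaling to the library total moves the median of all genes to -1.36 with WD mothers and -1.45 with CD mothers. Relative to it Figf had 0.04 and Vegfa 0.19 with CD mothers, and Vegfa had 0.70 with WD mothers. Apart from the pseudocount, values relative to this median cannot change with the scaling. The other causes were not tested.

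Leaving out 1 library in turn gave 1593 to 3335 genes with WD mothers (1593 without WD_CD replicate 2, 1723 without WD_CD replicate 3) and 698 to 1714 with CD mothers (698 without CD_CD replicate 1, 705 without CD_CD replicate 2). Members called were 2 to 6 in each, and relative to endothelial genes 0 to 4 and 0 to 1. By mother's diet 0 to 10 genes were called in WD offspring (10 without WD_WD replicate 1) and 0 to 3 in CD offspring (3 without WD_CD replicate 2). The ratio of Tek to Tie1 ran from -0.27 to 0.05. Log2 differences whose sign turned ran, by offspring's diet, from -0.81 to 0.44 for Nrp2 with WD mothers, and with CD mothers from -0.45 to 0.68 for Figf and -0.49 to 0.82 for Vegfa. By mother's diet in WD offspring they ran from -1.21 to 0.12 for Kdr, -0.05 to 0.82 for Nrp1, -0.54 to 0.70 for Nrp2, -0.86 to 1.80 for Tek and -1.49 to 0.56 for Tie1. In CD offspring they ran from -0.55 to 0.05 for Flt4, -0.12 to 0.28 for Nrp1, -0.33 to 0.14 for Tek and -0.34 to 0.09 for Tie1. For the interaction they ran from -1.51 to 0.42 for Flt1, -0.12 to 0.75 for Nrp1, -0.71 to 1.96 for Tek, -1.37 to 0.68 for Tie1 and -0.10 to 1.21 for Vegfa. Replicate numbers did not pair the samples (correlations of deviations from -0.232 to 0.071), and with the replicate block 2319 genes and 4 members were called with WD mothers and 1433 genes and 4 members with CD mothers; Flt4 with WD mothers then had an adjusted p of 0.0515. Depth limits Figf in WD_WD (3 reads) and Flt4 in CD_WD (8, 5 and 75 reads).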
